A study of Bos taurus with 48 samples.

Results

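Gene expression was compared in bovine longissimus thoracis et lumborum (LTL) muscle, the long muscle of the back, between fetuses of 135 and 195 days of gestation. The members were the 6 arrays labelled with these ages, 3 of each, among the 48 arrays of the series. Every array was a 2-colour Agilent array that carried a Piedmontese × Hereford and a Wagyu × Hereford fetus in its 2 channels, and each of the 3 slides held 1 array of each age. Piedmontese is a heavily muscled breed with a defective myostatin gene, and Wagyu is a breed known for fat within the muscle. No treatment was given to either group, both groups shared the Hereford side of the cross, and the label of every channel named the same muscle and total RNA from a biopsy.

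The 12 channels came from 10 animal codes. At 135 days these were 3 Piedmontese × Hereford fetuses (GP012, GP672 and GP921) and 2 Wagyu × Hereford fetuses (GW625 and GW780, the latter on 2 arrays). At 195 days there were 2 Piedmontese × Hereford codes (GP041A, on 2 arrays, and GP041B) and 3 Wagyu × Hereford fetuses (GW024, GW067 and GW600). Whether GP041A and GP041B are 1 or 2 fetuses was not given in the sources used here. Their values correlated at r = 0.993 across genes, and those of GP041A with the other animals of that age at 0.991 to 0.993. All values below are log2 normalised intensities with 1 value per animal, and a difference is 195 minus 135 days. A p-value measured the spread between these animals alone.

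Fetal muscle is built in waves. Primary fibres form first, secondary fibres then form along them, and by late gestation fibre formation gives way to growth of the existing fibres. In this period embryonic and neonatal myosins are exchanged for adult isoforms, precursor cells leave the cell cycle, glycolytic enzymes accumulate and the connective tissue around the bundles is remodelled. Between 63.4% and 75.9% of the spots of a channel were well above background, and the median signal was 2.66 to 5.37 times its background. No spot was saturated.

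One library stood apart. GP672, a Piedmontese × Hereford fetus in the Cy3 channel of 1 array at 135 days, correlated with the other animals of its age at r = 0.917 to 0.923 across genes, where these correlated with each other at 0.988 to 0.996. It lay over 2 log2 units from the mean of the other animals of its age for 541 of 15243 genes, against 4 to 19 genes for each other animal against its own age. The summed intensity of 8 skeletal muscle markers was 19420 in GP672 and 556200 to 785200 in the other 4 animals of its age. The myosin chains summed to 17680 in GP672 and to 779600 to 967200 in the others. The adipocyte list summed to 641400 against 58380 to 77340, and the erythroid list to 460700 against 100500 to 216000.

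Single genes showed the same split, and those named here were chosen after their values were seen. ACTA1, the actin of skeletal muscle, was at 9.83 in GP672 and at 16.78 to 17.50 in the others. MYL1, a myosin light chain, was at 8.38 against 17.05 to 17.54, although its probe shared an accession with that of MYL3 and its name is uncertain. DBH and PNMT, enzymes of catecholamine synthesis, were at 15.16 and 14.98 in GP672, against at most 9.34 and 9.79 in the others. CYP21A2, an enzyme of adrenal steroid synthesis, was at 13.97 against at most 8.48. FABP4, a fatty acid binding protein of adipocytes, was at 16.49 against at most 11.89. The library labelled GP672 thus went against its tissue label on the skeletal muscle markers. Its values were kept in the planned test of all 10 animals. A value in brackets after another is the one without GP672, and values given for 1 of these fits alone say which. In the other 9 animals the skeletal muscle markers were bright at both ages. None of these 8 markers passed the test with all 10 animals. Without GP672, 4 were higher at 195 days and none was lower, among them TTN by 0.89 and DES by 0.68 (1.49 and 1.37 with it). MYBPC1 had a difference of 0.47 without GP672 (adjusted p = 0.124) and 1.42 with it, and the fit paired by slide without GP672 called it at 0.56 (adjusted p = 0.0112).

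**Figure D1:**
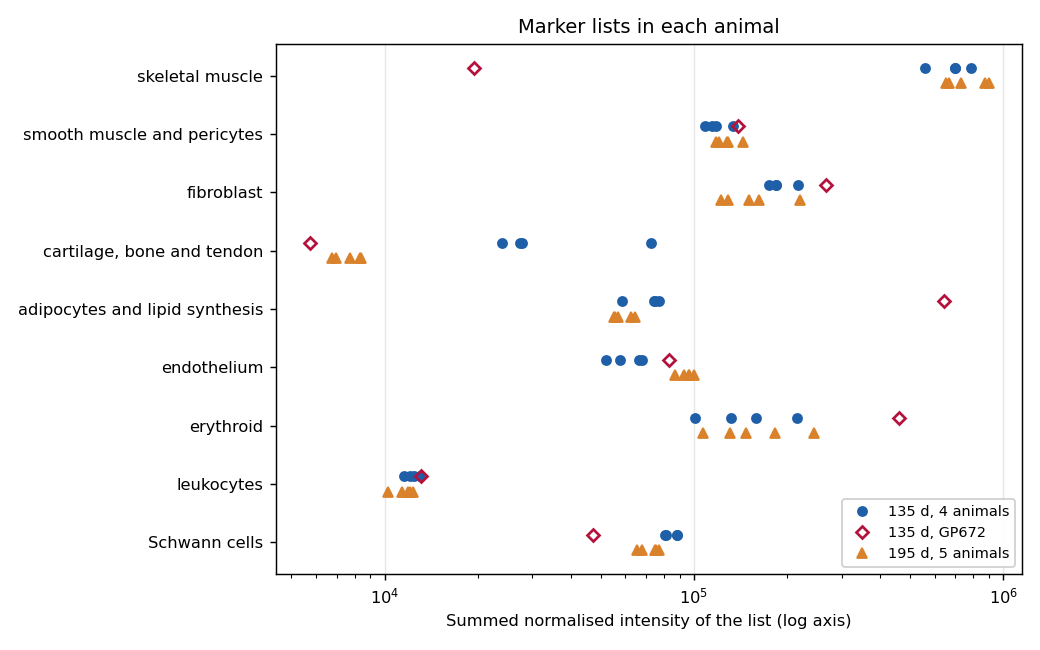
Summed normalised intensity of 8 cell type marker lists and of the adipocyte and lipid synthesis list (log axis) in each animal, with blue circles for 4 animals at 135 days, an open diamond for GP672 and orange triangles for 5 animals at 195 days. GP672 lay at 19420 on the skeletal muscle list, where the other 9 animals lay between 556200 and 895300.

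Over 15243 genes, 2092 (13.7%) differed between the ages with all 10 animals at an adjusted p under 0.05 (limma with Benjamini-Hochberg adjustment). Of these, 1026 (6.73% of genes tested) were higher at 195 days and 1066 (6.99%) were lower. Without GP672, 2844 genes (18.7%) differed, 1339 (8.78%) higher and 1505 (9.87%) lower, and 1836 genes were called in both fits. The counts of list members below are to be read beside these shares, and some lie near them. The animals of the ages did not overlap for 2465 genes (16.2%) with all 10 and for 3559 (23.3%) without GP672. Differences over 1 log2 unit were seen for 370 and 468 called genes, respectively. The count with all 10 animals fell to 369 when GW780 was left out, to 917 without GP041A, 1287 without GP041B and 1091 without GW600, and to 727 when GP041A and GP041B were counted as 1 animal. Without GP672 it fell to 1367, 1679 and 1712 when GP041A, GW600 or GW625 was left out as well. With all 10 animals it fell to 87 (59 higher and 28 lower) when each channel was median-centred. This took the place of both the loess within arrays and the normalisation between arrays. In bulk muscle, fewer cells of a type and less RNA per cell cannot be told apart.

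Each slide compared both ages side by side. Over all genes, 9204 of 15243 (60.4%) had the same direction on all 3 slides. Of the 2092 called with all 10 animals 2087 did so, which is a description, since they were called on these arrays. With slide as a block, which pairs the arrays of a slide, 2160 genes (14.2%) were called over the 6 arrays and 4756 when the GP672 channel was left out. This paired fit counted the 3 slides as independent, although GW780 was on slides 2 and 3 and GP041A on slides 1 and 3. Without GP672, the 135 day value of slide 2 was the Cy5 channel of GW780 alone. That channel had been normalised together with GP672. It was set against both channels of the 195 day array, without a dye or cross term. Slide 1 was scanned in 1 session and the other 2 slides in another, and both sessions held both ages. Among the genes described below, the paired fit of all 6 arrays also called CKM, LMOD2, TTN, COL2A1, RYR1, TNNI3, TPM2 and MYH14 (adjusted p = 0.0418, 0.026, 0.0374, 0.0452, 0.04, 0.0438, 0.0338 and 0.0315), and FABP4, CSF1R, AIF1, CNP and OLFM1 (adjusted p = 0.0445, 0.0397, 0.0302, 0.0464 and 0.0391). It did not call POLD2 (adjusted p = 0.0876). Among 189 named genes, not all of them described here, 15 lost their call in the paired fit of all 6 arrays. Another 10 gained a call and 2 changed direction. The paired fit without GP672 called FABP4 lower (adjusted p = 0.00176), and the other calls it changed among the genes described below are given beside them.

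Of the 10 largest rises, 5 were in genes of the sarcomere. MYBPC2, the fast form of myosin binding protein C, lay between 9.43 and 11.09 in 4 animals at 135 days, at 8.61 in GP672, and between 14.41 and 16.32 at 195 days. The groups did not overlap, and the difference was 5.91 ± 0.41 (SE, adjusted p = 0.000148), or 5.68 ± 0.40 without GP672. ACTN3, the α-actinin of fast fibres, lay at 10.15, 11.41, 10.38 and 11.30 in GP012, GP921, GW625 and GW780, at 8.58 in GP672, and at 15.30, 15.17, 14.84, 14.39 and 14.73 in GP041A, GP041B, GW024, GW067 and GW600. Every 195 day animal was above every 135 day animal, with a difference of 4.59 (adjusted p = 0.00129), or 4.12 without GP672.

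The ACTN3 probe and 4 other probes are printed because the isoform results turn on what each probe matches. They are the 60 bases spotted on the array, as the deposited files give them, and their genome positions were not determined here. The MYH1 value is the mean of 2 probes, of which only 1 is printed and compared.
ACTN3: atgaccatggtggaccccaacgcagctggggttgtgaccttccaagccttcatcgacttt
EEF1A2: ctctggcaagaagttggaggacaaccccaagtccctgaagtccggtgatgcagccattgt
MYH1: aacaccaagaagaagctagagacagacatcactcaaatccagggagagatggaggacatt
MYH4: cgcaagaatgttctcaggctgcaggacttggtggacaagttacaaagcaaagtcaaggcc
MYH8: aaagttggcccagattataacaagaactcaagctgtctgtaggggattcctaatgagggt
The 3 skeletal myosin probes shared no run longer than 7 bases with each other. No probe was compared with a transcript, so this does not show that the probes tell the isoforms apart. The heavy chain genes are near-identical along much of their length, and a probe can still bind transcripts of a paralog, these 3 included.

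Other large rises were in genes of fibre metabolism, translation and signalling. EEF1A2, the translation elongation factor of mature muscle and nerve, lay at 6.88 to 7.04 in 4 animals at 135 days, at 8.04 in GP672 and at 10.78 to 12.23 at 195 days. It was thus near the bottom of the scale at the younger age, and its difference was 4.22 (4.51 without GP672). RPL3L, the muscle paralog of a ribosomal protein, rose by 4.17 (3.70). FBP2, the fructose bisphosphatase of muscle, rose by 4.31 (4.08), although its 135 day animals were spread from 7.46 to 11.54. OXT, the gene of the hormone oxytocin, lay at 8.15 to 9.81 at 135 days and at 12.54 to 14.42 at 195 days, a difference of 4.54 (4.30). SLC6A13, a transporter of GABA and taurine, rose by 3.73 (3.21). At birth OXT had a mean of 13.23, whereas SLC6A13 had a mean of 8.27. Without GP672 the 10 largest rises also held ART3, a membrane protein of the ADP-ribosyltransferase family, with 3.13 (2.74), and OLFM1, an olfactomedin secreted by neurons. OLFM1 lay at 12.63 in GP672, above the 195 day animals, so that its difference was 1.89 (adjusted p = 0.149) with it and 2.79 without it.

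The 10 largest falls included secreted, matrix and neural genes. SPP1, the bone matrix protein osteopontin, lay at 13.28 to 14.27 at 135 days and at 9.55 to 11.15 at 195 days, a difference of -3.48 ± 0.28 (adjusted p = 0.000354; -3.56 without GP672). CRABP1, a retinoic acid binding protein, fell by 3.28 on the log2 scale, from 12.01 to 13.39 at 135 days to 9.07 to 9.64 at 195 days. CCKAR, a cholecystokinin receptor, lay at 11.46 to 12.06 in 4 animals at 135 days and at 8.45 in GP672, against at most 8.36 at 195 days, so that its difference of -2.87 became -3.55 without GP672. NNAT, an imprinted gene of the developing nervous system, fell by 2.37 on the log2 scale. POSTN, the matrix protein periostin, fell by 2.24, and ANGPTL6, a secreted angiopoietin-like protein, by 2.50. TMEM130, SCG5 and FNDC1 completed the 10 largest falls with CKB.

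**Figure D2:**
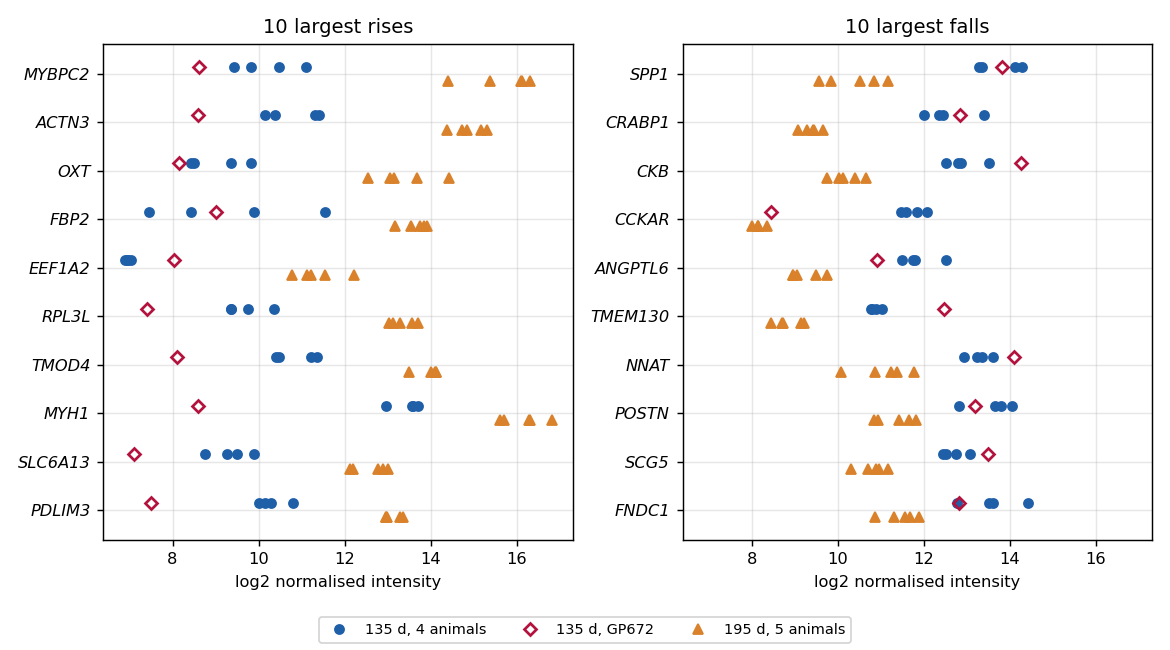
log2 normalised intensity of the 10 genes with the largest rise (left) and the 10 with the largest fall (right) from 135 to 195 days, with 1 symbol per animal and GP672 as an open diamond. The animals of the ages did not overlap for any of these 20 genes, which the selection rule required.

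The myosin list had 14 members tested, 13 heavy and light chains and the kinase MYLK2, and did not hold MYL7, which is described below. With all 10 animals 3 members, MYLK2 among them, were higher and none was lower. Without GP672, 4 were higher and 1 lower, with a median difference of 0.37 beside -0.01 over all genes. MYH1, the fast heavy chain of type 2X fibres, lay at 12.96 to 13.70 in 4 animals at 135 days and at 8.60 in GP672, against 15.62 to 16.81 at 195 days. The difference was 3.73 ± 0.94 (adjusted p = 0.0311), or 2.70 ± 0.31 without GP672. Its probes differed in size, with 3.15 and 4.18, or 1.88 and 3.51 without GP672. MYH4, the heavy chain of type 2B fibres, rose by 1.88 (1.41) from a low level. MYLK2, the myosin light chain kinase of skeletal muscle, rose by 1.46 (1.18). MYH14, a non-muscle heavy chain, rose by 1.35 without GP672 (adjusted p = 0.00123), and its difference with GP672, which lay above the 195 day animals, was 0.95 (adjusted p = 0.123).

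The embryonic heavy chain MYH3 lay at 17.47 to 17.87 in 4 animals at 135 days, at 11.67 in GP672 and at 17.27 to 17.66 at 195 days. The groups overlapped, and its difference was 1.14 ± 1.14 (adjusted p = 0.538) with all 10 animals and -0.15 ± 0.13 (adjusted p = 0.461) without GP672. Its mean at birth was 10.43. MYH3 was the brightest gene of the myosin list, and its array means differed by 0.02 and -0.03 on slides 1 and 3. Near the top of the scale the normalisation between arrays can hide a change, so the adjusted p of MYH3 does not show that it was unchanged. MYH8, the perinatal heavy chain, had a difference of 1.82 (adjusted p = 0.2) with all 10 animals and of 0.92 ± 0.45 without GP672 (adjusted p = 0.18). In the paired fit without GP672 it passed, at 0.72 (adjusted p = 0.0216), with 0.89, 0.22 and 1.04 on the slides. MYH7, the slow heavy chain, had a difference of 1.66 (adjusted p = 0.419), or 0.25 ± 0.41 without GP672 (adjusted p = 0.712). The light chains MYL1, MYL2, MYL3, MYL6B and MYL11 and the slow-tonic heavy chain MYH7B passed the test in neither fit. Their differences were 0.13 (MYH7B) to 1.86 (MYL1) with all 10 animals, and -0.06, 0.14, 0.48, 0.66, 0.21 and -0.22, in this order, without GP672. The paired fit without GP672 called MYL3, MYL6B and MYH7B, at 0.42, 0.55 and -0.33 (adjusted p = 0.0348, 0.0246 and 0.0224).

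MYL4, the light chain of embryonic muscle and atrium, lay at 16.17 to 16.47 in 4 animals at 135 days and at 15.41 to 15.98 at 195 days, and fell by 0.63 on the log2 scale without GP672 (adjusted p = 0.0266). GP672 was at 11.44, and with it the difference was 0.41 (adjusted p = 0.8). MYL7, the regulatory light chain of atrium, lay at 15.52, 16.32, 16.49 and 15.77 in GP012, GP921, GW625 and GW780 and at 11.60, 12.90, 9.76, 9.75 and 10.38 in GP041A, GP041B, GW024, GW067 and GW600. It fell by 5.12 on the log2 scale without GP672 (adjusted p = 0.00198), the largest fall in that fit. GP672 lay at 10.18, within the 195 day animals, and the difference with it was -3.87 (adjusted p = 0.0784). The mean of MYL7 at birth was 6.87.

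**Figure D3:**
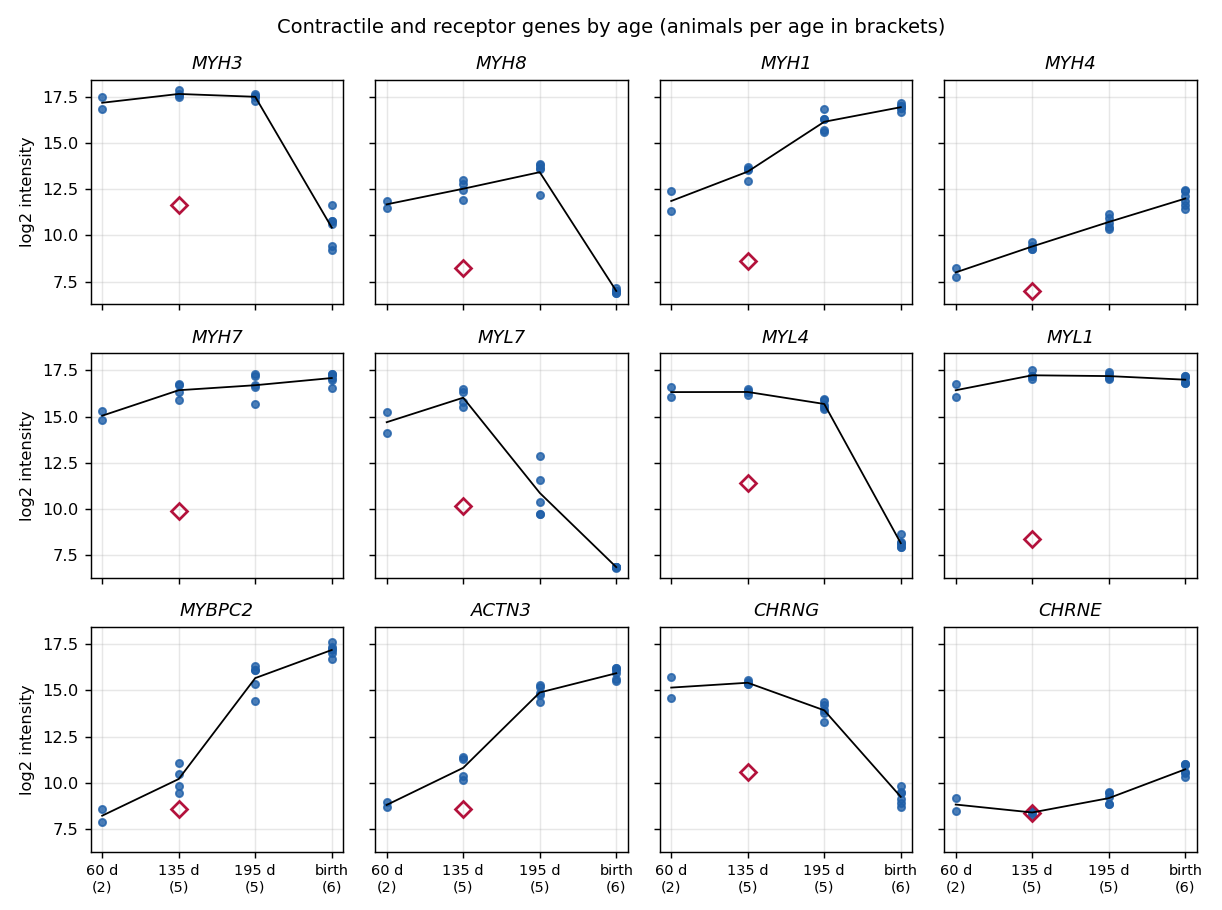
log2 normalised intensity of 12 contractile and receptor genes in fetuses of 60, 135 and 195 days and in newborns, with 1 point per animal, GP672 as a red open diamond, and a line through the age means without GP672. MYBPC2, ACTN3 and MYH1 rose between 135 and 195 days, and MYH3, MYH8 and MYL4 lay far lower at birth than at 195 days, a step that was not tested here.

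The thick filament, M-band and Z-disc list had 43 members tested, of which 12 were higher and 2 lower with all 10 animals, and 24 were higher and 2 lower without GP672. Its median difference was 1.39 with all 10 animals and 0.61 without GP672. PDLIM3, a Z-disc protein that binds α-actinin, lay at no more than 10.81 in 4 animals at 135 days, at 7.49 in GP672 and at 12.96 to 13.37 at 195 days, a rise of 3.39 (2.74). TCAP, the titin cap, rose by 2.41 (1.84), and TRIM63, a ubiquitin ligase of the sarcomere, rose by 2.21 (1.52). ANKRD23, a titin-associated ankyrin repeat protein, was not well above background in any channel at 135 days and was at least 2.42-fold higher at 195 days. It is 1 of the 12 members counted as higher, but it passed the filter on dim probes through its 195 day channels alone, so its value is a description. The members that fell were MYBPC3, the cardiac form of myosin binding protein C, by 1.32 on the log2 scale, and PDLIM5.

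Of 16 thin filament and troponin genes tested, 2 were higher and 1 lower with all 10 animals, against 8 higher and 2 lower without GP672. TMOD4, the tropomodulin that caps thin filaments in skeletal muscle, lay at 10.40 to 11.35 in 4 animals at 135 days, at 8.10 in GP672 and at 13.49 to 14.13 at 195 days, a rise of 3.75 ± 0.55 (3.18 ± 0.23). LMOD2, a leiomodin that lengthens thin filaments, had a difference of 2.95 with all 10 animals (adjusted p = 0.0656) and rose by 1.93 without GP672 (adjusted p = 0.00362). TNNT3, the fast troponin T, had a difference of 1.53 (adjusted p = 0.245) and rose by 0.61 without GP672 (adjusted p = 0.016), although its groups overlapped. TNNI3, the cardiac troponin I, had a difference of -1.08 (adjusted p = 0.0762) and fell by 0.72 on the log2 scale without GP672. NEB, the giant ruler protein nebulin, rose by 0.80 and TNNT1, the slow troponin T, by 0.83 without GP672 (1.52 and 1.72 with it, not called). The tropomyosins TPM1 and TPM2 had differences of 0.42 and 0.52 without GP672 (adjusted p = 0.0492 and 0.0475), but the ages overlapped for both, and 1.36 and 0.77 with it. The paired fit without GP672 did not call TPM1, which was at -0.14 on slide 2 (adjusted p = 0.172). The capping protein subunits parted, with CAPZB at 0.59 (0.57) and CAPZA1 at -0.47 (-0.53), both called in both fits. ACTC1, TNNC1, TNNT2 and TPM3 were called in neither fit, with 1.04, 0.91, 0.07 and -0.38 with all 10 animals and -0.33, 0.05, -0.56 and -0.27 without GP672, although the paired fit without GP672 called TNNT2 at -0.59 (adjusted p = 0.0128). ACTA1 and TNNC2 had differences of 1.52 and 1.03 with all 10 animals, and both of -0.06 without GP672, with adjusted p of 0.851 and 0.741. TNNC2 was the brightest skeletal muscle marker, and its array means differed by 0 on slides 1 and 3. The normalisation between arrays gives spots of equal rank the same mean over both channels. At the top rank a change cannot be seen, so the adjusted p of TNNC2 does not show that it was unchanged. Near the top rank a change can be hidden too, and the array means of ACTA1 differed by 0.02 and 0.04 on slides 1 and 3.

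Of 29 calcium handling genes tested, 8 were higher and none lower with all 10 animals, and 15 were higher and 2 lower without GP672, with a median of 0.56. S100A1, a calcium sensor that acts on the release channel, lay at 8.68 to 9.58 at 135 days and at 10.89 to 11.89 at 195 days, a rise of 2.37 (2.29). SYPL2, a protein of the triad membrane, rose by 1.84 (1.34) and BIN1, which shapes the transverse tubules, by 1.59 (1.19). RYR1, the calcium release channel, rose by 1.56 without GP672, and PVALB, the calcium buffer parvalbumin, fell by 0.86 on the log2 scale. With all 10 animals they had differences of 2.37 and -1.37 (adjusted p = 0.06 and 0.078). RYR1 and PVALB were chosen after their values were seen.

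Of 26 glycolysis genes tested, 8 were higher and 1 lower with all 10 animals, and 12 were higher and 3 lower without GP672, with medians of 0.64 and 0.53. GAPDH lay at 13.84 to 14.60 at 135 days and at 15.23 to 16.16 at 195 days, a rise of 1.49 ± 0.22 (1.40 ± 0.24). PKM, the muscle pyruvate kinase, rose by 1.55 in both fits. SLC2A4, the insulin-responsive glucose transporter, lay at 10.74 to 11.45 at 135 days and at 12.09 to 12.67 at 195 days, a rise of 1.42 (1.57). SLC2A1, the glucose transporter of most fetal cells, fell by 0.83 on the log2 scale (0.77 without GP672), from 11.30 to 11.86 down to 10.13 to 11.04. Neither gene overlapped between the ages.

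Of 18 glycogen genes tested, 8 were higher and 1 lower with all 10 animals (10 and 2 without GP672). PYGM, the muscle glycogen phosphorylase, rose by 2.47 (1.83), and PPP1R3C, a subunit that targets a phosphatase to glycogen, rose by 1.77 (1.60). PHKG2, the liver form of the phosphorylase kinase catalytic subunit, fell by 0.91 on the log2 scale (0.93), whereas PHKG1, the muscle form, rose by 1.61 (1.24).

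The creatine kinases differed in opposite directions. CKB, the brain type enzyme of immature muscle, lay at 13.50, 12.87, 12.79, 12.51 and 14.25 in GP012, GP921, GW625, GW780 and GP672 and at 9.74 to 10.66 at 195 days, a fall of 3.02 ± 0.36 on the log2 scale (2.72 ± 0.28 without GP672). CKM, the muscle type enzyme, lay at 12.80 to 13.75 in 4 animals at 135 days, at 8.81 in GP672 and at 14.65 to 15.51 at 195 days. Its difference was 2.94 with all 10 animals (adjusted p = 0.0528) and 1.99 ± 0.26 without GP672 (adjusted p = 0.00109). CKMT2, the mitochondrial enzyme, rose by 2.54 (2.34), and GATM, which catalyses the first step of creatine synthesis, rose by 1.90 (2.22). Of the 13 phosphagen and adenylate genes tested, 5 were higher and 1 lower with all 10 animals, and 8 were higher and 1 lower without GP672.

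Of 31 genes of the citric acid cycle and pyruvate dehydrogenase, 4 were higher and none lower (8 and 0 without GP672, with a median of 0.28). Of 35 genes of fatty acid uptake and oxidation, 3 were higher and none lower (11 and 0, with a median of 0.29). SLC27A1, a fatty acid transporter, rose by 1.00 (0.97) and PPARGC1A, a coactivator of mitochondrial biogenesis, by 0.65 (0.61). Among 76 respiratory chain genes, 3 were higher and 3 lower (9 and 4 without GP672). Over all genes, 6.73% were higher and 6.99% lower with all 10 animals, and 8.78% and 9.87% without GP672. The direction split between paralogs of one subunit. COX7A1, the form of heart and skeletal muscle, rose by 0.76 (0.90), and COX7A2, the form of other tissues, fell by 0.94 on the log2 scale (0.72).

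At the neuromuscular junction, 2 of 19 genes were higher and none lower with all 10 animals, against 3 and 3 without GP672. CHRNG, the fetal γ subunit of the acetylcholine receptor, lay at 15.32 to 15.56 in 4 animals at 135 days and at 13.30 to 14.39 at 195 days. It fell by 1.47 ± 0.25 on the log2 scale without GP672 (adjusted p = 0.00374). GP672 was at 10.59, and with it the difference was -0.45 ± 0.92 (adjusted p = 0.781). CHRNE, the adult ε subunit that replaces it, rose by 0.75 ± 0.12 (0.69 ± 0.13), from 8.24 to 8.51 up to 8.84 to 9.49. ACHE, the esterase that ends transmission, rose by 1.25 (1.21). CHRND, the δ subunit, had a difference of 1.77 (adjusted p = 0.239) and rose by 0.73 without GP672. CHRNA1 and CHRNB1, the subunits common to the fetal and adult receptor, had differences of 0.55 and 0.71 with all 10 animals and of -0.03 and 0.00 without GP672, and were not called.

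Of 48 myogenic regulators tested, 4 were higher and 4 lower with all 10 animals (5 and 7 without GP672), and the median was 0.01 without GP672. The shares over all genes were 6.73% higher and 6.99% lower (8.78% and 9.87% without GP672). TWIST1, a repressor of muscle differentiation, lay at 9.48 to 10.54 at 135 days and at 8.43 to 9.18 at 195 days and fell by 1.35 on the log2 scale (1.25). INHBA, the activin A subunit, fell by 1.25 (1.32) and FSTL1, a follistatin-like secreted protein, by 1.09 in both fits. MET, the hepatocyte growth factor receptor of migrating and satellite cells, rose by 1.17 (0.96), and TBX15, a transcription factor of fast fibres, by 1.42 (1.24).

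Among the myogenic factors themselves, MYF5, the earliest of them, fell by 0.80 ± 0.14 on the log2 scale without GP672 (adjusted p = 0.00512), from 8.74 to 9.33 down to 8.08 to 8.34. GP672 was at 6.81, and the difference with it was -0.35 (adjusted p = 0.618). MYOD1 had a difference of -0.16 ± 0.09 and MYOG of -0.32 ± 0.15 without GP672 (adjusted p = 0.262 and 0.175), and of 1.03 and 0.63 with it (adjusted p = 0.546 and 0.653). MYF6 had a difference of 0.59 ± 0.19 without GP672 (adjusted p = 0.0549) and of 1.42 with it (adjusted p = 0.233), and the paired fit without GP672 called it at 0.58 (adjusted p = 0.0202). MSTN, the muscle growth inhibitor myostatin, had a difference of 0.53 (adjusted p = 0.46), or 0.06 ± 0.20 without GP672 (adjusted p = 0.867). PAX7, the marker of satellite cells, lay near the bottom of the scale at 6.71 to 7.18.

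**Figure D4:**
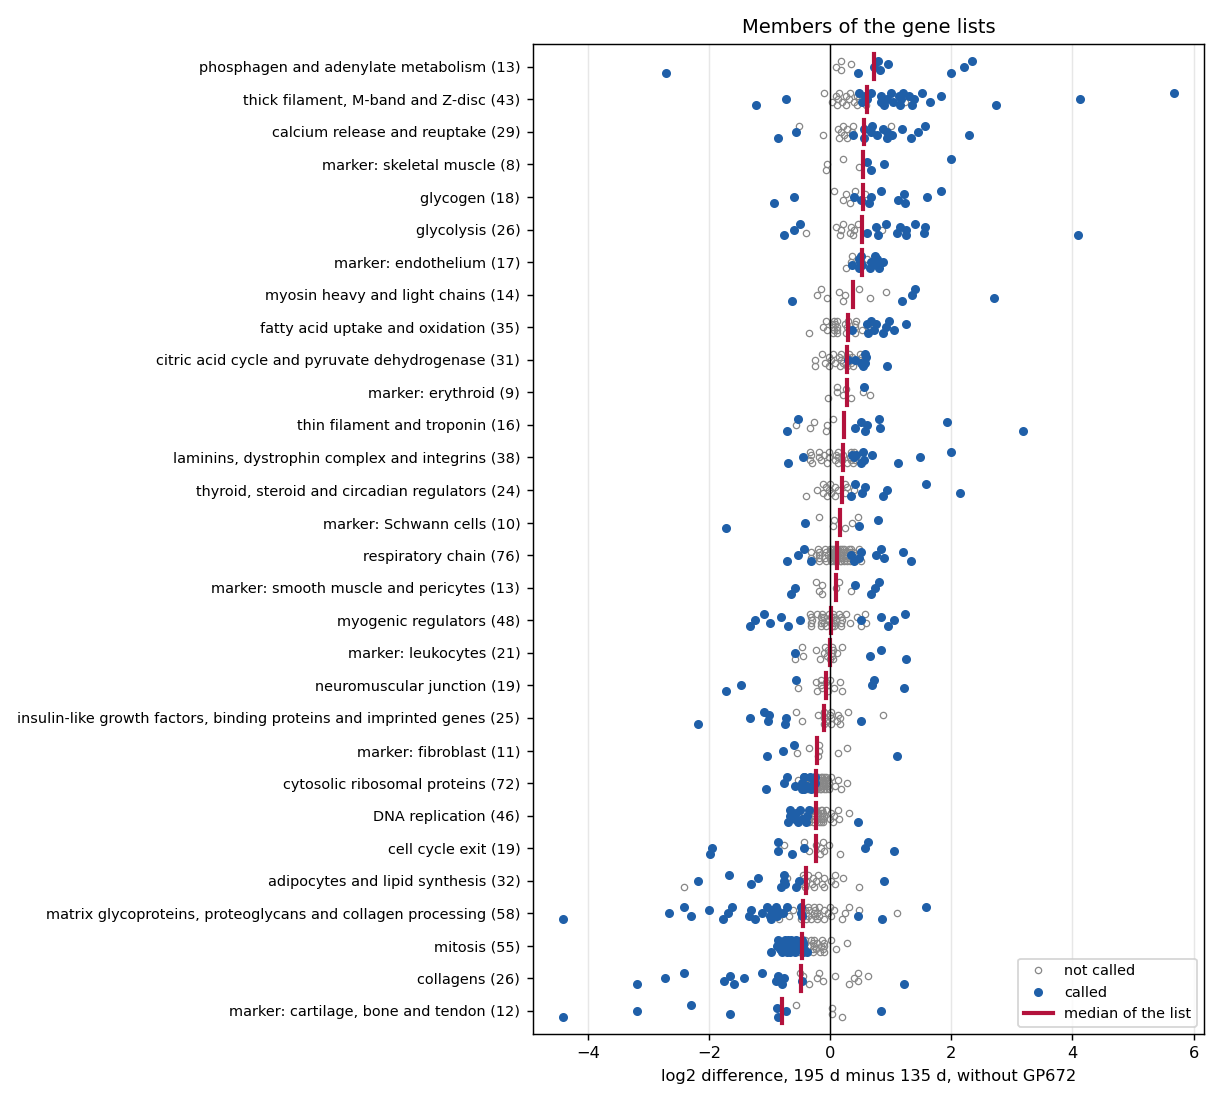
log2 difference from 135 to 195 days without GP672 for every member tested of 30 gene lists, with filled blue points for members called at an adjusted p under 0.05, open points for the others, a bar at the median and the number of members in brackets. Mitosis members lay almost all below 0 (0 called higher, 30 lower), and endothelium members all above 0 (13 called higher, 0 lower).

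Of 55 mitosis genes tested, 28 were lower and none higher with all 10 animals (30 and 0 without GP672), with a median of -0.47 in both fits. CDC25A, the phosphatase that starts the cell cycle kinases, lay at 10.32 to 11.10 at 135 days and at no more than 9.73 at 195 days, a fall of 0.96 on the log2 scale (0.81). TOP2A, the topoisomerase of dividing cells, fell by 0.77 (0.80), from 11.45 to 12.44 down to 10.91 to 11.41. GP672 lay among the other 135 day animals for TOP2A, at 11.73. Of 46 DNA replication genes, 11 were lower and 1 higher in both fits. LIG1, the replicative DNA ligase, fell by 0.80 on the log2 scale (0.67), and the gene that rose was POLD2, a subunit of DNA polymerase δ, by 0.52 (0.46).

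Of 19 genes tied to cell cycle exit, 1 was higher and 3 lower with all 10 animals, and 3 were higher and 6 lower without GP672. CDKN1C, an imprinted inhibitor of cyclin kinases, lay at 14.77 to 16.05 at 135 days and at 13.77 to 14.39 at 195 days and fell by 1.12 on the log2 scale (0.86). CDKN1A, the inhibitor p21, fell by 1.94 without GP672 (adjusted p = 0.00064), whereas its difference with GP672, which was at 10.50, was -1.16 (adjusted p = 0.304). CDKN1A was chosen after its values were seen. Of 72 cytosolic ribosomal proteins tested, 22 were lower and none higher (16 and 0 without GP672), with RPL37A at -1.01 (-1.06), RPL7 at -0.94 (-0.76) and RPL39 at -0.79 (-0.72). Ribosomal proteins have many processed pseudogenes, and a probe may bind their transcripts too.

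Of 26 collagens tested, 9 were lower and 1 higher with all 10 animals (13 and 1 without GP672), with medians of -0.57 and -0.48. COL12A1, a collagen of dense connective tissue, lay at 13.01 to 15.38 at 135 days and at 11.73 to 12.97 at 195 days, a fall of 2.01 ± 0.42 on the log2 scale (2.42 ± 0.26 without GP672). COL16A1, a collagen associated with fibrils, fell by 1.90 (1.76). The collagen that rose was COL15A1, of the basement membrane around fibres and capillaries, from 12.23 to 13.01 up to 13.74 to 14.07, by 1.33 (1.22).

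Of 58 matrix glycoproteins, proteoglycans and collagen processing genes, 20 were lower and 2 higher (25 and 3 without GP672), with medians of -0.46 and -0.44. VCAN, the proteoglycan versican, lay at 12.65 to 13.06 at 135 days and at 10.27 to 11.48 at 195 days, a fall of 1.94 on the log2 scale (2.00). PCOLCE2, an enhancer of procollagen cleavage, rose by 1.43 (1.59). Of 38 laminins, integrins and genes of the dystrophin complex, 8 were higher and 2 lower (10 and 2 without GP672). CAV3, the caveolin of muscle fibres, rose by 2.11 (1.48), and LAMA1, an embryonic laminin chain, fell by 0.72 on the log2 scale (0.70).

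Of 12 markers of cartilage, bone and tendon tested, 3 were lower and 1 higher with all 10 animals (7 and 1 without GP672), and the summed intensity was 23930 to 72830 in 4 animals at 135 days, 5731 in GP672 and 6756 to 8368 at 195 days. TNMD, the tendon protein tenomodulin, lay at 14.17, 14.11, 15.75 and 13.92 in GP012, GP921, GW625 and GW780, at 8.09 in GP672 and at 9.96 to 10.38 at 195 days. It fell by 4.40 ± 0.38 on the log2 scale without GP672 (adjusted p = 0.000146), and its difference with GP672 was -2.99 (adjusted p = 0.152). COL2A1, the collagen of cartilage, fell by 3.19 without GP672 (adjusted p = 0.000766), with -2.40 (adjusted p = 0.07) in all 10 animals. KERA, the proteoglycan keratocan, and COL11A1, a fibrillar collagen of cartilage, were among the 10 largest falls without GP672, by 2.66 and 2.73 on the log2 scale. With GP672, at 8.08 and 9.37, their differences were -1.39 and -1.95 (adjusted p = 0.457 and 0.124). The animal GW625 was the highest of the 135 day animals on TNMD, COL2A1 and COL12A1. The part of tendon or cartilage tissue in the biopsies in the differences of the matrix genes was not tested.

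Of 17 endothelial markers tested, 10 were higher and none lower with all 10 animals (13 and 0 without GP672), with medians of 0.50 and 0.52. Their summed intensity was 51880 to 67730 in 4 animals at 135 days, 82730 in GP672 and 86590 to 99880 at 195 days. ESAM, an adhesion molecule of endothelial junctions, lay at 11.19 to 11.65 at 135 days and at 12.09 to 12.43 at 195 days, a rise of 0.85 ± 0.12 (0.88 ± 0.14). PECAM1 rose by 0.75 (0.78) and EGFL7, a factor secreted by endothelium, by 0.64 (0.77). Among 21 leukocyte markers, 3 were higher and 1 lower. CD74, the invariant chain of class II antigen presentation, lay at 8.03 to 8.43 at 135 days and at 9.43 to 9.56 at 195 days, a rise of 1.25 ± 0.09 (1.26 ± 0.11). ITGAL, an integrin of leukocytes, rose by 0.80 (0.84). CD163, a scavenger receptor, fell by 0.45 on the log2 scale with all 10 animals (adjusted p = 0.0396; 0.0613 without GP672), and LYZ, the enzyme lysozyme, fell by 0.58 without GP672 (adjusted p = 0.0243). CSF1R, the macrophage growth factor receptor and the brightest gene of the list, lay at 11.90 to 12.22 at 135 days and at 11.16 to 11.81 at 195 days without overlap, and its difference was -0.49 (adjusted p = 0.0533). The paired fit without GP672 called CSF1R, AIF1, CD163 and LYZ lower. AIF1 and LYZ were chosen after their values were seen. The summed intensity of the leukocyte list overlapped between the ages, at 11570 to 13100 and 10230 to 12350.

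The other cell type lists are given beside 13.7% of all genes called with all 10 animals and 18.7% without GP672. Of 11 fibroblast markers, none was higher and 2 were lower (1 and 3 without GP672), and COL1A1 overlapped between the ages, at 15.12 to 16.48 and 15.33 to 16.20. Of 13 markers of smooth muscle and pericytes, 2 were higher and 1 lower (4 and 2 without GP672). Among the 4 is RGS5, a marker of pericytes, which was not well above background at 135 days in any channel other than GP672. It was at least 1.72-fold higher at 195 days without GP672. Apart from GP672, it passed the filter on dim probes through its 195 day channels alone, so its value is a description. Of 10 Schwann cell markers, 1 was higher and none lower (2 and 2 without GP672). CNP, an enzyme of myelin and the brightest of them, had a difference of -0.34 (adjusted p = 0.0532) and fell by 0.41 on the log2 scale without GP672. S100B, a calcium binding protein of glia and muscle, rose by 0.90 (0.79). ERBB3, a neuregulin receptor, fell by 1.72 on the log2 scale without GP672 (adjusted p = 0.000324), was not called with all 10 animals (adjusted p = 0.336), and was chosen after its values were seen. Of 9 erythroid markers, TFRC, the transferrin receptor, was the 1 called. HBG, the fetal globin, lay at 15.82 to 17.94 at 135 days and at 15.93 to 17.14 at 195 days.

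Of 32 genes of adipocytes and lipid synthesis, 1 was lower with all 10 animals and 10 were lower and 1 higher without GP672. The gene called in both fits was ME1, the malic enzyme that supplies reducing power for lipid synthesis, which fell by 1.38 on the log2 scale (1.18). The high adipocyte sum of GP672 stood on the 135 day side of this comparison, and the median of -1.02 with it became -0.40 without it.

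**Figure D5:**
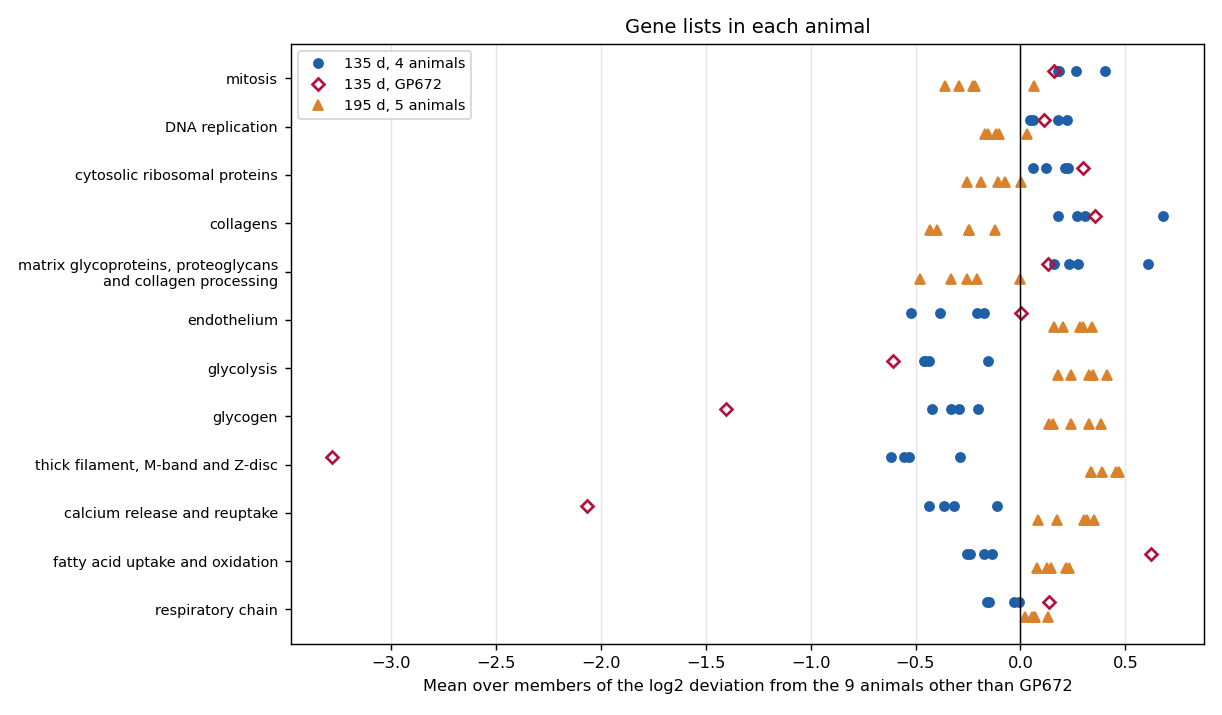
Mean over the members of 12 gene lists of the log2 deviation from the mean of the 9 animals other than GP672, with 1 symbol per animal, blue circles at 135 days, an open diamond for GP672 and orange triangles at 195 days. The lists were chosen after their values were seen among the 21 of 30 whose 4 circles and 5 triangles did not overlap, whereas 9 lists that are not drawn did overlap, and GP672 lay at -3.28 on the thick filament list.

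Regulators of growth and hormone response were mixed. Of 25 insulin-like growth factor and imprinted genes, 1 was higher and 5 lower (1 and 7 without GP672). IGFBP2, a binding protein of the fetal circulation and tissues, fell by 1.00 on the log2 scale (1.10), and HMGA2, a chromatin protein of embryonic cells, by 1.11 (1.32). GHR, the growth hormone receptor, rose by 0.64 (0.50). Among 24 thyroid, steroid and circadian regulators, 6 were higher and none lower (8 and 0). ESR1, the oestrogen receptor α, lay at 7.15 to 7.90 in 4 animals at 135 days, at 9.59 in GP672 and at 9.31 to 9.85 at 195 days. Its difference of 1.67 became 2.15 without GP672. BHLHE40, a repressor of the clock, lay at 9.71 to 10.22 at 135 days and at 11.19 to 11.67 at 195 days and rose by 1.49 (1.58).

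The change with age was compared between the crosses by the interaction of age and cross. No gene was called by limma (0 of 15243, 586 genes at an unadjusted p under 0.05), and none was called without GP672 (929 unadjusted). The lowest adjusted p was 0.989 and 0.504. With 2 or 3 animals per cross and age, this does not show that the crosses changed alike.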

How the data were processed

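Total RNA of LTL muscle was labelled with Cy3 or Cy5 and hybridised by the authors to 2-colour Agilent arrays, and the deposited spot intensity values and backgrounds were read with Agilent Feature Extraction 9.5.1 per the labels. From these, mean signals were corrected for background (normexp, offset 50), normalised by loess within arrays and by Aquantile between the 12 arrays of the prenatal slides, and taken to log2 per channel with limma 3.58.1 in R 4.3.3. Control spots and spots marked as outliers were left out. Probes with a signal well over background in 6 or more of the 12 channels of both ages were kept, which left 15778 of 21475 probes and 15243 genes, 11385 of them matched to the RefSeq table. Probes of a gene, and channels of an animal, were averaged.

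Ages were compared with lmFit and eBayes over all genes, with the Cy5 share as covariate and animals linked by shared arrays as a random block (duplicateCorrelation), two-sided, with Benjamini-Hochberg adjustment at 0.05. The scripts were tested on simulated data. Precision is limited by the 5 animals per age. Genes named were the 10 largest rises and falls among called genes without overlap, the 5 largest calls per direction in each list, members of the contractile and receptor lists, and the brightest marker of each cell type, with the same rule applied without GP672 after its values were seen. The text gives values for part of these genes and counts for the lists, and some of these genes are not reported here. Members and lists were chosen with earlier results of these data known. Genes that no probe name matched, among them MYH2, TNNI1 and TNNI2, were not analysed here.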

Additional observations from a re-analysis of the deposited data

Results flagged for a closer look

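Among 189 named genes, 378 groups of 5 animals were examined for 1 animal separated from the other 4 by more than 0.71 of the range, which chance gives in about 1 group in 20. An animal stood apart in 79 groups, 65 at 135 days and 14 at 195 days. GP672 was that animal for 63 genes, in 56 as the lowest and in 7 as the highest. The others were GP012 with 1 gene, GW625 with 1, GP041A with 4, GP041B with 1, GW024 with 4, GW067 with 4 and GW600 with 1. On the marker lists GP672 stood apart with a summed intensity of 19420 for skeletal muscle and of 47040 for Schwann cells, against 556200 to 785200 and 80790 to 88430 in the other 135 day animals. The adipocyte and lipid synthesis list was not examined in this way. Its sum was 641400 in GP672 and 58380 to 77340 in the other 135 day animals. The array partner of GP672, GW780, was on a second array as well, and the mean of its 2 channels lay with the other 135 day animals. Its channel beside GP672 was normalised together with GP672, and the values without GP672 still hold it. On slide 2 without GP672, ACTA1, MYH3 and TNNC2 differed by -0.81, -0.90 and -0.93, against -0.03 to 0.04 on slides 1 and 3. These 3 genes were chosen after their values were seen, and the part of the shared normalisation was not tested. The cause of the separate values of GP672 was not tested.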

How the results depend on the processing

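With all 10 animals, 1836 to 2907 genes were called under the other backgrounds, normalisations, filters, probe rules and models, apart from 87 under median centring (59 higher, 28 lower) and 727 with GP041A and GP041B as 1 animal. Leaving out 1 animal or 1 array gave 369 (without GW780) to 2844 (without GP672) genes, with 458 without the second 195 day array and 1076 without the first 135 day array. Without GP672, median centring gave 210 and leaving out another animal 1367 to 3240. With the whole array of GP672 left out before normalisation, 2420 genes were called (1205 higher, 1215 lower). Arrays of both ages were paired by the slide they shared, and slide as a replicate block gave 2160 genes with all 10 animals and 4756 without GP672. Both counts treat the slides as independent, although GW780 and GP041A were each on 2 of them. No gene was called for the difference between crosses under any alternative run.

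Most reversals were of genes that passed no test. With all 10 animals, MYF5 turned to 0.01 with the Agilent processed signal. COL1A1, HBG and PAX7 turned to 0.18, 0.16 and -0.04 under median centring. MYH7B and TNNT2 turned to -0.01 and -0.07 with array means, with slide as a block or with each channel as a sample, and TNNT2 to -0.10 with GP041A and GP041B as 1 animal. Leaving out 1 animal or array moved ACTA1 between -0.06 and 2.52, ACTC1 between -0.33 and 1.96, CHRNA1 between -0.04 and 0.88, CHRNB1 between -0.02 and 1.22 and CHRNG between -1.51 and 0.30. It moved HBG between -0.47 and 0.18, MYF5 between -0.80 and 0.10, MYH3 between -0.15 and 1.96, MYH7B between -0.23 and 0.36 and MYL1 between -0.06 and 3.09. The ranges were -0.63 to 1.11 for MYL4, -0.17 to 1.86 for MYOD1, -0.38 to 1.29 for MYOG, -0.06 to 1.73 for TNNC2 and -0.56 to 0.50 for TNNT2.

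The alternatives without GP672 were chosen after seeing the data. In that set, median centring turned ACTA1 to 0.31, ACTC1 to 0.07, CHRNA1 to 0.08, CHRNB1 to 0.12, COL1A1 to 0.25, MYH3 to 0.32, MYL1 to 0.28, MYOD1 to 0.15, MYOG to 0.03, PAX7 to -0.17 and TNNC2 to 0.43. CHRNB1 was at 0.04 with the processed signal, 0.00 without the block and 0.11 with slide as a block. TNNC2 was at 0.01 with quantile normalisation. With the whole array of GP672 left out before normalisation, ACTA1 and MYL1 were at 0.05 and TNNC2 at 0.00. MSTN was at -0.07 and TNNC1 at 0.00 with slide as a block. Leaving out 1 more animal moved CHRNB1 between -0.08 and 0.14, MSTN between -0.10 and 0.16, HBG between -0.07 and 0.28, CHRNA1 between -0.28 and 0.08, TNNC1 between -0.06 and 0.12 and ACTC1 between -0.69 and 0.07. MYH7 moved between -0.14 and 0.52, MYL1 between -0.18 and 0.04, MYL2 between -0.10 and 0.34, ACTA1 between -0.14 and 0.11 and TNNC2 between -0.14 and 0.02. The cause of these moves was not tested. Dim probes, at 63.4% to 75.9% of spots above background, limit what can be said of genes near the bottom of the scale, such as PAX7.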
